A study of Homo sapiens with 8 samples.

Results

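The S100 genes encode small calcium-binding proteins, and 10 of them were taken by symbol from the table of normalized CPM values: S100A2, S100A3, S100A4, S100A6, S100A8, S100A9, S100A10, S100A11, S100A13 and S100A16. Of these 10 genes, 8 were measured among 17649 gene symbols, and S100A8 and S100A9 were not analysed here. RNA-Seq compared 4 control cultures with 4 cultures of MDA-MB-231 cells that received 1 μM CML (N-(1-carboxymethyl)-L-lysine, an advanced glycation end product) for 48 hours in low-glucose medium, and the control cells received PBS. These cells are a long-established, estrogen receptor–negative human breast cancer line, and a single tumor line stands for both conditions. The libraries held between 16161801 and 18954731 estimated reads, and CPM are read counts per library size as the authors normalized them, with sums from 986730 to 1014124 per library. The authors exposed the cells to see whether CML turns on inflammatory genes of signaling through RAGE, a receptor that it may bind. Nothing in the labels says how the replicate cultures were separated, so the p-values measure the spread between these samples, which may be technical.

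S100 proteins pair up as dimers and bind calcium through EF-hand motifs, after which an exposed surface docks on partner proteins. Inside cells, they act on the cytoskeleton, on membranes and on annexins, and some are released and bind RAGE, the receptor that also recognizes advanced glycation end products. Several family members, S100A4 foremost, are known for their links to invasion and metastasis of breast cancer.

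All 8 genes measured lie on chromosome 1 in the S100 cluster, on the minus strand, between positions 151982915 and 153634361 of GRCh38.p14. They form separate groups along it. S100A10 (151982915 to 151993859) and S100A11 (152032506 to 152037004) lie apart from the rest. S100A6 (153534599 to 153535991), S100A4 (153543621 to 153545806), S100A3 (153547329 to 153549258) and S100A2 (153561108 to 153565844) follow one another, and S100A16 (153606883 to 153613137) and S100A13 (153618799 to 153634361) come last. The genes differ in the sequence before their transcript starts, although 3 of them share a short stretch of the chromosome. The 250 bases upstream of S100A6, the most abundant of the family here, of S100A4, whose level moved with that of S100A6, and of S100A3, a neighbor with a far lower level, are shown to let these windows be compared. They come from RefSeq (GRCh38.p14, minus strand, chr1:153535992-153536241, chr1:153545807-153546056 and chr1:153549259-153549508), and capitals mark matches on either strand to the GC box GGGCGG, the TATA box TATAAA or the AP-1 motif TGANTCA.
S100A6: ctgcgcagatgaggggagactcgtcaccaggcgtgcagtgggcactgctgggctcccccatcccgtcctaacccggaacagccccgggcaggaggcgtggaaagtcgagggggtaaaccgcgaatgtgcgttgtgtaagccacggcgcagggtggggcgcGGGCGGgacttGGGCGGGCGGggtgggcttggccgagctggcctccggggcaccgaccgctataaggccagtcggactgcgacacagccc
S100A4: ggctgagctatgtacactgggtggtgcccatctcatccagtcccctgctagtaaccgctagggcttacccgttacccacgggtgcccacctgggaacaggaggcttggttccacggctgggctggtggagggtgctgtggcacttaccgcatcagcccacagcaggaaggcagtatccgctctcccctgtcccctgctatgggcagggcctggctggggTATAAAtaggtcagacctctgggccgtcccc
S100A3: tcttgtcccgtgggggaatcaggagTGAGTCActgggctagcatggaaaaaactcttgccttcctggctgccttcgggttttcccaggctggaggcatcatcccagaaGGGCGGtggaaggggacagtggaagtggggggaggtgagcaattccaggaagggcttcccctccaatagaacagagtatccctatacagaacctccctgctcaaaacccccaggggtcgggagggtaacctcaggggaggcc
The S100A6 window held 3 GC box matches, with first bases at −90, −79 and −75 from the transcript start (the last pair overlap), and 24 CpG dinucleotides at a GC content of 70%. The S100A4 window held a TATA box match at −31, 7 CpG dinucleotides and 62.8% GC, whereas the S100A3 window held an AP-1 match at −225, a GC box match at −142, 4 CpG dinucleotides and 58.4% GC. Among 35116 RefSeq promoters of 300 bases, 45% held a GC box match, 11.5% a TATA box match and 7.71% an AP-1 match. The NF-κB motif, held by 11.3% of promoters, had no match before any of the 8 genes, and a match or its absence describes letters only.

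The S100 transcripts fell into 2 ranges of abundance that were far apart. S100A6, a protein tied to the cytoskeleton and to proliferation, was the most abundant, with 2505 ± 170 CPM per kb of transcript in controls (SD, n = 4) and 2569 ± 92.9 with CML (SD, n = 4). S100A11, a partner of annexin A1, had 577 ± 27.3 CPM per kb in controls (SD, n = 4). S100A16 had 241 ± 7.35, S100A4 had 207 ± 11.6, S100A10 had 184 ± 5.8 and S100A13 had 132 ± 4.26 (CPM per kb in controls, SD, n = 4). Over all 8 libraries the ranges of neighbors in this order did not overlap, except for S100A4 (191 to 223) and S100A10 (177 to 199). Much lower stood S100A2, with 6.72 ± 0.7, and S100A3, with 6.12 ± 1.19 CPM per kb in controls (SD, n = 4). Their ranges, 6.13 to 8.05 for S100A2 and 4.84 to 7.72 for S100A3, overlapped. Division by the length of the canonical GENCODE transcript allows levels to be compared between genes, and lengths ran from 434 bases for S100A6 to 1172 bases for S100A16.

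**Figure D1:**
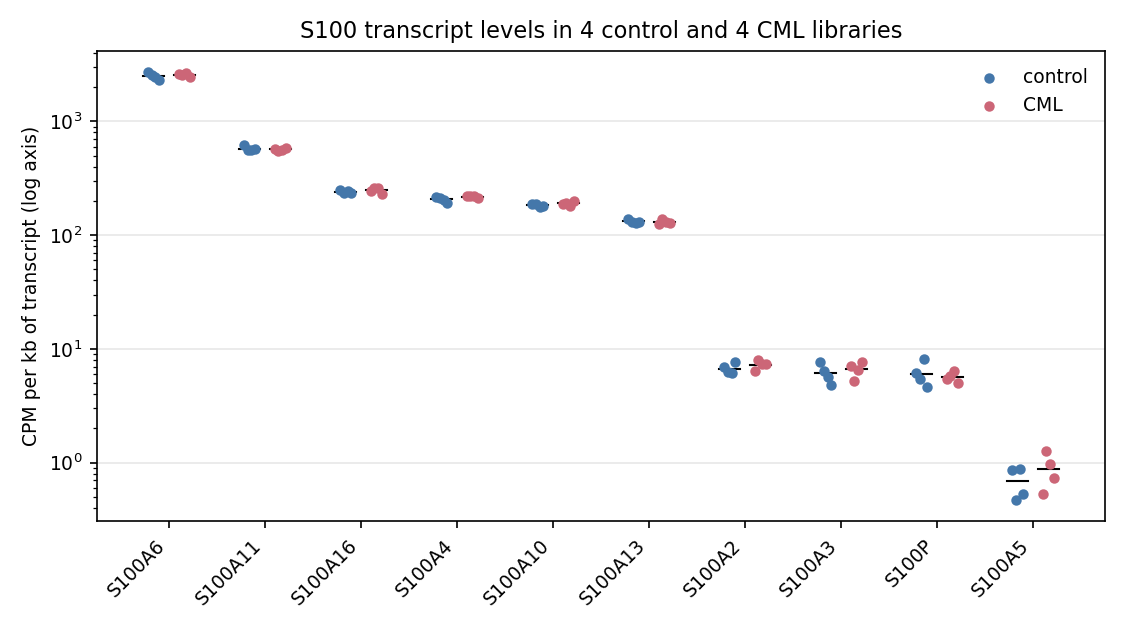
Level of each S100 gene in CPM per kb of transcript (log axis) in 4 control (blue) and 4 CML (red) libraries, with the group mean as a black line and libraries 1 to 4 from left to right. S100A6 stands highest at 2505 CPM per kb in controls, 6 genes lie above 100, and S100A2, S100A3 and S100P lie near 6.

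Of 11 other S100 genes that were listed, 2 were measured. S100P, which lies outside the cluster on chromosome 4 (6693878 to 6697170, GRCh38.p14) and is a known RAGE ligand, had 6.07 ± 1.5 CPM per kb in controls (SD, n = 4), in the range of S100A2 and S100A3. S100A5, a neighbor of S100A6, had 0.686 ± 0.218 CPM per kb (SD, n = 4), which rests on 6 to 18 reads per library. It overlaps S100A4 on the same strand, so some of these reads could belong to either gene.

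With CML, none of the 8 S100 genes differed from its control level by an amount that passed the test. With all libraries, the estimates lay within 7.46% of control on the scale of CPM + 1, which understates the difference of the least abundant genes. In RNA from whole cultures, fewer expressing cells and less RNA per cell cannot be told apart. None of the 8 measured genes passed the FDR of 0.3 that the study used for its transcript heatmap (limma, adjusted p from 0.731 to 0.996), where 0.895% of all symbols passed (0.674% higher and 0.221% lower with CML). None passed an unadjusted p of 0.05 either, against 7.66% of all symbols (4.77% higher and 2.9% lower). In none were the groups fully separated, against 3.78% of all symbols (2.5% higher and 1.27% lower). No symbol of the table passed at an FDR of 0.05 (limma; 1352 of 17649 had an unadjusted p under 0.05). The estimates were above control for 6 of the 8 genes and below it for 2, with a median log2 difference of 0.05, while 58.8% of all symbols with a mean of at least 1 CPM were above control and the median over all symbols was 0.01. Summed over the 8 genes, the S100 transcripts held 2133, 2006, 1962 and 1891 CPM in the controls and 2060, 2055, 2079 and 1975 CPM with CML. The highest and the lowest sum were both controls, and S100A6 made up 53% to 55.2% of each.

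S100A6 had 1177, 1105, 1064 and 1002 CPM in the control libraries and 1137, 1115, 1149 and 1058 CPM with CML. The CML libraries lay inside the control range. The difference (in percent of CPM + 1, as for the genes that follow) was 2.68%, with a 95% interval from −5.86 to 12%, or 0.04 ± 0.053 (SE) on the scale of log2(CPM + 1), with a limma adjusted p of 0.959. When 1 library was left out, the log2 difference of S100A6 ran from −0.0002 (without control 4) to 0.08 (without control 1). Between libraries of a group its level varied by a CV of 5.43%, whereas counting error at 17003 to 20849 reads would give 0.732%.

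S100A4, the metastasis-associated member that binds non-muscle myosin heavy chain, had 111, 110, 105 and 97.9 CPM in the control libraries and 114, 114, 113 and 108 CPM with CML. Of the 4 CML libraries, 3 lay above the highest control, and the fourth lay between controls, so that the groups overlapped by a single library. The difference was 6.02% (95% interval −1.03 to 13.6%), with a limma p of 0.0846 before and 0.731 after adjustment, and a 2-sided exact permutation p of 0.0857. This was the smallest p among the 8 genes. With 1 library left out, the log2 difference of S100A4, 0.08 in all libraries, ran from 0.05 (without control 4) to 0.11 (without control 1). The unadjusted limma p was 0.0175 with the replicate block and 0.0467 without control 1 (adjusted p = 0.416 and 0.67). It was 0.279 under quantile normalization.

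S100A10, which joins annexin A2 at the cell surface and promotes plasmin formation there, had 127, 126, 118 and 122 CPM in controls and 127, 130, 122 and 133 CPM with CML. The upper CML libraries stood above all controls, and the lower ones lay among them. The difference was 3.86% (95% interval −1.59 to 9.61%; limma adjusted p = 0.802). Its log2 difference of 0.05 became 0.03 without CML 4 and 0.08 without CML 3. S100A11 gave 347, 314, 316 and 323 CPM in controls and 325, 312, 318 and 331 CPM with CML, a difference of −1.11% (95% interval −6.81 to 4.94%; adjusted p = 0.996). Control 1 was its highest library, and the others lay close together in both groups. Leaving control 1 out turned the sign of its log2 difference from −0.02 to 0.02.

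S100A16, a widely expressed member, had 292, 278, 286 and 273 CPM in controls and 287, 306, 304 and 271 CPM with CML. Both the highest and the lowest values were CML libraries, and the difference was 3.27% (95% interval −3.84 to 10.9%; adjusted p = 0.897). Its log2 difference of 0.05 became 0.02 without CML 2 and 0.08 without CML 4, and 0.03 without control 4 or CML 3. S100A13, which takes part in the export of FGF1 and interleukin-1α, had 66, 62.4, 61.4 and 62.5 CPM in controls and 59.4, 66.5, 62 and 60.9 CPM with CML. The CML range enclosed the control range, and the difference was −1.42% (95% interval −7.54 to 5.11%; adjusted p = 0.988). S100A13 overlaps S100A1 and CHTOP on the opposite strand, and its values came out as whole reads in 1 of 8 libraries. Whether its reads are shared with these genes was not tested.

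The 2 members of low abundance had wider intervals. S100A2, found in epithelial cells and regulated by p53, had 6.74, 6.09, 5.99 and 7.47 CPM in controls and 6.25, 7.86, 7.25 and 7.16 CPM with CML. A single CML library exceeded all controls, and the interval of the difference ran from −7.14 to 24.4% (estimate 7.46%; adjusted p = 0.897). S100A3, best known from the hair cuticle, had 5.66, 4.73, 4.17 and 3.59 CPM in controls and 5.21, 3.85, 4.88 and 5.72 CPM with CML. The groups overlapped almost fully, and the interval ran from −15.7 to 35.9% (estimate 7.05%; adjusted p = 0.967). Single libraries moved both estimates. With 1 library left out, the log2 difference of S100A3, 0.10 in all libraries, ran from 0.01 (without control 4) to 0.19 (without control 1 or CML 2). That of S100A2, also 0.10, ran from 0.06 (without CML 2) to 0.16 (without control 4 or CML 1). With 99 to 147 reads for S100A2 and 63 to 95 for S100A3, counting error alone gives CVs of 9.3% and 11.3%, and the CVs within groups were 9.88% and 17.8%. S100P (2.86 ± 0.705 CPM in controls, 2.66 ± 0.265 with CML; SD, n = 4) and S100A5 (0.519 ± 0.165 and 0.665 ± 0.239; SD, n = 4) had adjusted p values of 0.993 and 0.897 in the limma fit.

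**Figure D2:**
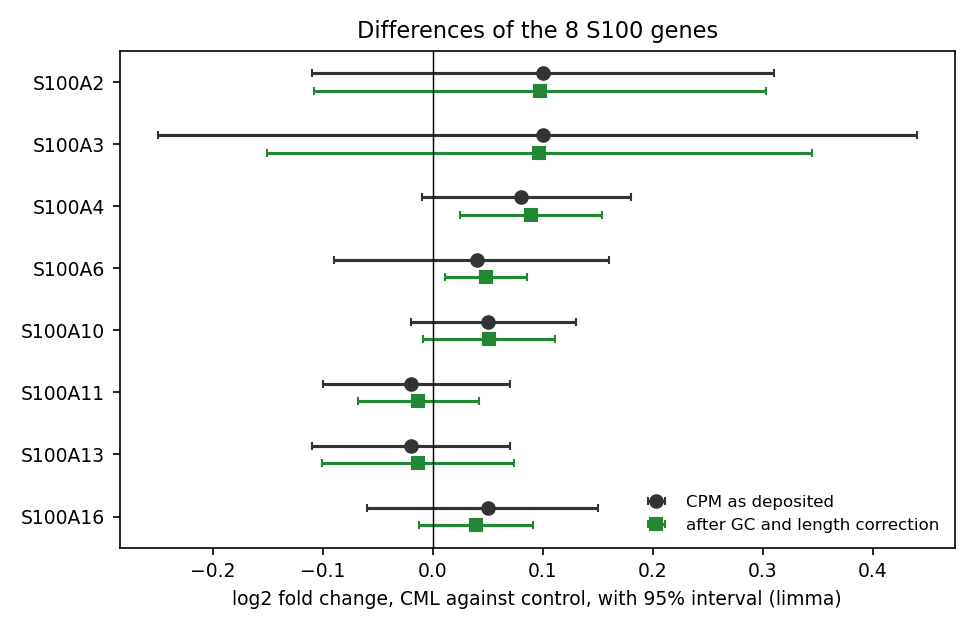
Log2 fold change of the 8 S100 genes, CML against control, on the scale of log2(CPM + 1), with 95% intervals from limma, for CPM as deposited (black circles) and after a correction for GC content and transcript length (green squares). All black intervals include 0, and the green intervals of S100A4 and S100A6 do not.

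A correction for the GC content and length of transcripts was added after the values had been seen. In each library, the deviation of log2(CPM + 1) from the symbol's mean over all 8 libraries was fitted on transcript GC content and length. The fit ran over 12122 symbols, and its trend was subtracted, also where that trend differed between the groups. S100A6 then had 1079, 1084, 1097 and 1066 CPM in controls and 1123, 1135, 1131 and 1085 CPM with CML, and S100A4 had 105, 108, 108 and 102 CPM in controls and 113, 116, 112 and 109 CPM with CML. The SD of S100A6 was 73.6 CPM in controls and 40.3 with CML before the correction, and 12.9 and 22.8 after it. That of S100A4 was 5.94 and 2.82 before, and 3.33 and 2.83 after. The S100A4 groups no longer overlapped, and for S100A6 a single CML library lay among the controls. The log2 difference of S100A4 changed little, to 0.09 (95% interval 0.02 to 0.15), and that of S100A6 to 0.05 (0.01 to 0.09), but both passed the FDR of 0.3 (limma adjusted p = 0.198 and 0.241). After the correction 6.9% of the 12122 symbols passed this threshold (4.31% higher and 2.59% lower), against 1.15% of the same symbols without it, and the 2 S100 genes were the only ones of 8 to do so. Each passed in 3 of 8 corrected fits that left out a library, and lost the call without control 1 or 4 or CML 1, 2 or 3, where the adjusted p reached 0.448 for S100A4 and 0.505 for S100A6. The fit does not charge the correction to its degrees of freedom, and neither gene passed in any of the 16 other alternatives without it.

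Within the groups, some S100 genes moved together from library to library. Over the 8 libraries, after the group means were subtracted, the Pearson correlation of S100A4 with S100A6 was 0.92, and that of S100A3 with S100A11 was 0.73. The remaining pairs of the 28 lay below 0.7, down to −0.47 for S100A2 with S100A3, with a median of 0.26 and 21 pairs above 0. The values of a library share its depth and any trend with base composition in it. For S100A6, 287 symbols had a higher correlation than S100A4, and the closest of 13046 were TIMM13, GUK1 and GHDC, each at 0.99. The canonical transcripts of these 3 genes have a GC content of 62.1% to 63.3%, above the median of 47.8%, and S100A6 has 54.1%. After the correction for GC content and length, the correlation of S100A4 with S100A6 was 0.80 and that of S100A3 with S100A11 was 0.37. The highest values were then those of S100A13 with S100A2 and with S100A16, both 0.82, and the lowest were −0.89 for S100A3 with S100A16 and −0.82 for S100A4 with S100A11. The median over pairs was 0.04, and 15 pairs were above 0.

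**Figure D3:**
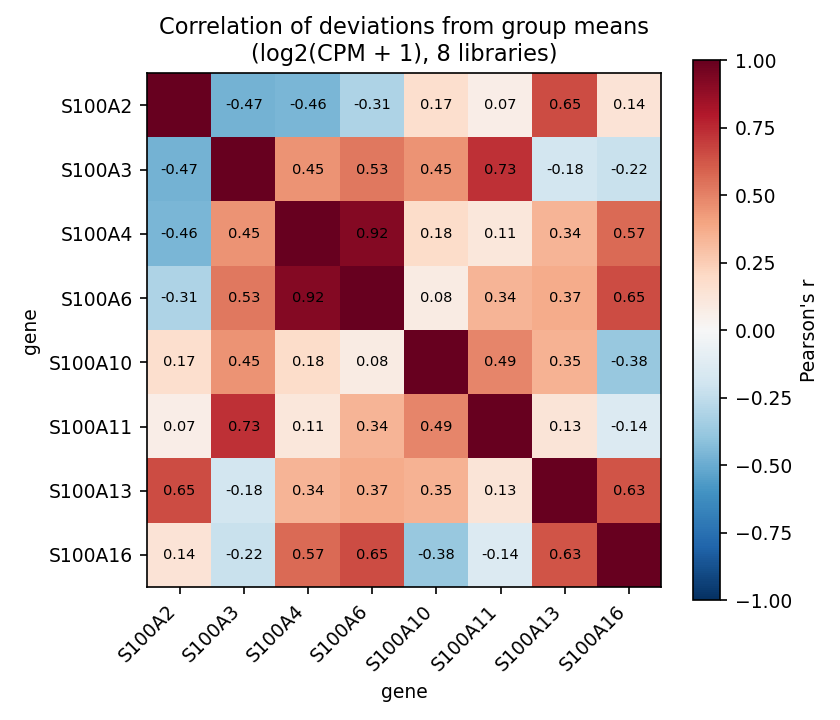
Pearson correlation between the S100 genes of the deviations of log2(CPM + 1) from group means over 8 libraries, from −1 (blue) to 1 (red). The deepest red off the diagonal is S100A4 with S100A6 at 0.92, and S100A2 is negative with S100A3 at −0.47.

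The receptors of S100 proteins were measured beside their ligands. AGER, which encodes RAGE, had 2.98, 1.89, 3.33 and 2.56 CPM in controls and 1.97, 2.14, 2.01 and 1.99 CPM with CML. The CML libraries clustered tightly below 3 of the controls and above control 2. The difference on the scale of log2(CPM + 1) was −0.27 (95% interval −0.56 to 0.02; limma adjusted p = 0.683), on 32 to 55 reads per library. A pseudocount of 0.1 in place of 1 gave −0.36 (limma adjusted p = 0.717). With the pseudocount of 1, the unadjusted limma p of AGER, 0.0615, became 0.0462 with median centring and 0.00208 without control 2. Without control 2, the log2 difference was −0.38 (adjusted p = 0.346). Some alternatives gave larger limma p values, among them 0.0786 with quantile normalization, 0.104 with the replicate block and 0.139 without control 3. Others gave slightly smaller ones, among them 0.058 with at least 0.5 CPM in 2 libraries and 0.0521 after the GC and length correction. Fits that left out 1 library gave log2 differences of AGER from −0.38 (without control 2) to −0.19 (without control 3). TLR4, a receptor of S100A8 and S100A9, stood at 133 ± 7.73 CPM in controls and 138 ± 3.05 with CML (SD, n = 4; limma adjusted p = 0.86). ALCAM (423 ± 16.3 and 426 ± 4.48 CPM; SD, n = 4) and BSG (306 ± 34.7 and 318 ± 21.2 CPM; SD, n = 4) had the highest CPM on this list. Of 8 receptor genes measured, 5 were above control and 3 were below (58.8% of all symbols with a mean of at least 1 CPM were above). None passed the FDR of 0.3 (0.895% of all symbols) or, in the fit of all libraries as deposited, an unadjusted p of 0.05 (7.66%). The 10 measured genes of RAGE signaling and other AGE receptors split into 5 above and 5 below control (58.8% above, as before). In the same fit, none passed the FDR of 0.3 (0.895% of all symbols) or an unadjusted p of 0.05 (7.66%). The highest CPM among them belonged to DDOST (535 ± 9.62 and 530 ± 7.57 CPM; SD, n = 4) and PRKCSH (289 ± 21.7 and 289 ± 15.6 CPM; SD, n = 4), both of which encode AGE-binding proteins. Under quantile normalization, DDOST had an unadjusted limma p of 0.0333 (adjusted p = 0.605), with a log2 difference of −0.04.

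S100 proteins act through annexins, myosins and other partners, inside the cell and at its surface. Of 24 partner genes measured, 18 were above and 6 below control (58.8% of all symbols with a mean of at least 1 CPM were above), 1 rose at the FDR of 0.3 (0.674% of all symbols rose), 5 had an unadjusted p under 0.05 in the upward direction (4.77% of all symbols) and 3 had groups that did not overlap (2.5%). The gene that rose was PLAT, which encodes tissue plasminogen activator, a protease that S100A10 binds. PLAT had 331, 332, 333 and 305 CPM in controls and 374, 374, 369 and 351 CPM with CML. Every CML library lay above every control, and the fourth library was the lowest in both groups. PLAT rose by 12.8%, or 0.17 ± 0.0357 (SE) on the scale of log2(CPM + 1), with a limma adjusted p of 0.263. It lost this call when the libraries were centred on their median, under quantile normalization and in 6 of 8 fits that left out a library, in which the adjusted p was between 0.386 and 0.534 (without control 1, 2 or 3 or CML 1, 2 or 3). Its log2 difference lay between 0.15 and 0.19 in these fits.

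ANXA2, which encodes the annexin that carries S100A10, had 1505, 1490, 1557 and 1612 CPM in controls and 1644, 1664, 1638 and 1644 CPM with CML. The groups did not overlap, but its log2 difference of 0.10 ± 0.0292 (SE) had a limma adjusted p of 0.469, and its reads were whole in 3 of 8 libraries. Without control 4 the log2 difference was 0.12 and passed the FDR of 0.3 (adjusted p = 0.192). DLC1, whose protein S100A10 binds, stood at 118 ± 2.44 CPM in controls and 125 ± 3.52 with CML (SD, n = 4; limma adjusted p = 0.475), also without overlap. MYH9, the myosin heavy chain bound by S100A4, had 849, 802, 836 and 739 CPM in controls and 900, 910, 917 and 817 CPM with CML. A single CML library lay among its controls, and the adjusted p was 0.635. Its log2 difference of 0.14 was 0.09 without control 4. Its paralog MYH10 gave 21.2 ± 1.23 and 23.5 ± 1.43 CPM (SD, n = 4; limma adjusted p = 0.593). After the GC and length correction, MYH9 (limma adjusted p = 0.00153), PLAT (0.00269) and ANXA2 (0.0128) were higher at the FDR of 0.3, and AHNAK, a scaffold of S100A10 and annexin A2 named here after its values were seen, was lower. These were 4 of 22 partner genes, or 18.2%. With the EF-hand genes added, 9 of 57 genes were called, or 15.8% (7 higher and 2 lower), beside the 6.9% of all symbols in that fit.

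**Figure D4:**
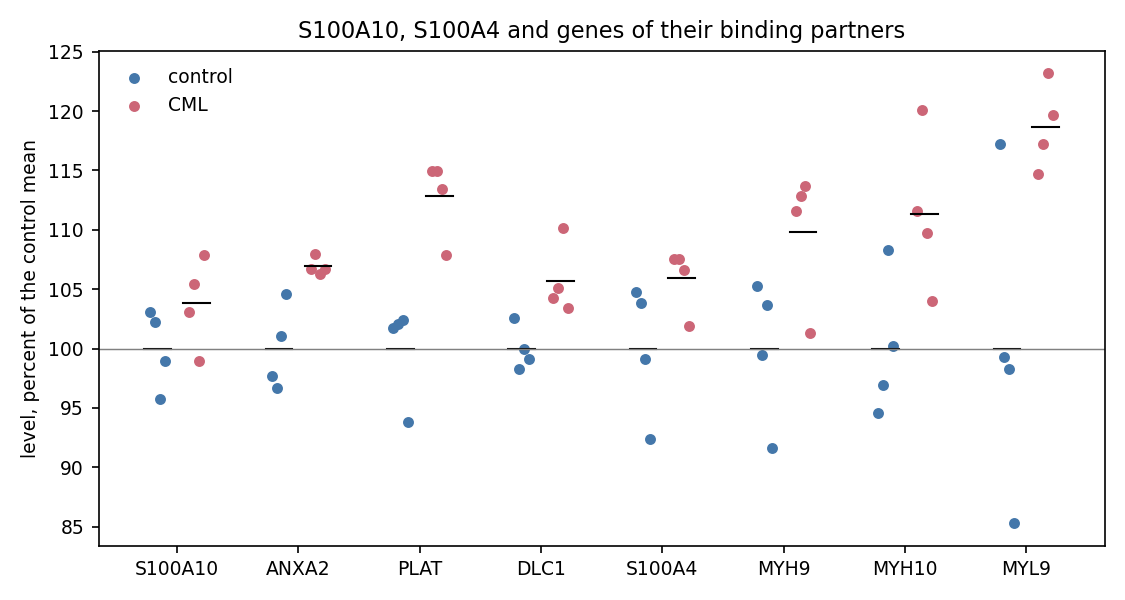
CPM of S100A10, S100A4 and genes of proteins they bind or act with (ANXA2, PLAT, DLC1, MYH9 and MYH10), with the myosin light chain MYL9, in percent of each gene's control mean, in 4 control (blue) and 4 CML (red) libraries with group means as black lines. PLAT, ANXA2 and DLC1 show no overlap between groups, while S100A10 and S100A4 overlap.

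Calcium binding by EF-hand motifs is shared by many proteins outside the S100 family. Of 36 such genes measured, 24 were above and 12 below control (58.8% of all symbols with a mean of at least 1 CPM were above), none passed the FDR of 0.3, and 1 had an unadjusted p under 0.05 in the upward direction (4.77% of all symbols). It was MYL9, a regulatory light chain of myosin, with an unadjusted p of 0.0261 (20.1 ± 2.63 CPM in controls, 23.8 ± 0.701 with CML; SD, n = 4; limma adjusted p = 0.553). The most abundant were ACTN1 (780 ± 37 and 820 ± 46.6 CPM; SD, n = 4) and CALM2 (709 ± 37.7 and 729 ± 22.2 CPM; SD, n = 4). After the GC and length correction, 5 of 35 EF-hand genes passed the FDR of 0.3 (4 higher and 1 lower, 14.3%, beside 6.9% of all symbols in that fit), among them MYL9 (limma adjusted p = 0.0717) and ACTN1 (0.24).

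Of the 10 nearest genes, 6 were measured. THEM4 lies before the cluster, and CHTOP, SNAPIN, ILF2, NPR1 and INTS3 lie after it. Their log2 differences ran from −0.09 to 0.03, with limma adjusted p values from 0.87 upward. Of 47 protein-coding genes outside the S100 family between S100A10 and S100A13, none was analysed here.

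The labelled cell line was checked by markers. VIM (4068 ± 39.1 CPM), FN1 (2020 ± 85.5), CD44 (832 ± 35.4), KRT18 (330 ± 15.8) and ZEB1 (121 ± 6.46) were abundant in controls (SD, n = 4), and PGR stood at 0 to 0.114 CPM. SPARC, listed as a marker of the line together with VIM, FN1, CD44, KRT18 and ZEB1, was low, unlike these. Its levels lay between 0.114 and 0.414 CPM in 7 libraries and at 6.03 CPM in CML 3. Of the luminal and hormone receptor markers, 6 were measured, PGR among them. KRT19 (289 ± 22.6 CPM) and ERBB2 (49.5 ± 4.71 CPM) were the highest in controls, EPCAM (14.2 ± 1.7 CPM) and GATA3 (4.96 ± 0.537 CPM) were lower, and CDH1 stood at 0.74 ± 0.168 CPM (SD, n = 4). ESR1 was not analysed here. Of 10 markers of neutrophils and monocytes, cells rich in S100A8 and S100A9, 4 were measured. PTPRC was at most 0.65 CPM, CD14 at most 1.73 and LYZ at most 1.37, and CD68, the most abundant, had 172 ± 9.31 CPM in controls (SD, n = 4). Their summed level ran from 155 to 183 CPM. Of 6 keratinocyte markers, KRT10 (16.8 ± 2.57 CPM) and TP63 (0.426 ± 0.143 CPM) were measured (controls, SD, n = 4), and the sums lay between 14.6 and 19.4 CPM. None of these marker genes passed the FDR of 0.3, except CD44 after the GC and length correction. It was 1 of 5 MDA-MB-231 markers in that fit, where 6.9% of all symbols passed.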

How the data were processed

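RNA-Seq values for 4 control and 4 CML libraries were used, grouped by the labels. The authors deposited CPM values, 1 column per library, with 17681 rows. Each row has an empty cell before its 8 values, so the 8 library names were matched to the values in order after that cell. The submitters' processing notes name edgeR and the hg38 build, and the aligner and counter of this experiment are not given in the sources used here. The study's methods for tumors, xenografts and cultured cells name Tophat, another build (hg19) and CPM with TMM factors. Dividing by the CPM of 1 read (0.0535 to 0.0622) gave between 16161801 and 18954731 estimated reads per library. Of the values under 100 CPM, 85% to 86% were whole within 0.02 reads, so no count test was run. Rows of the same symbol were averaged (32 symbols), a pseudocount of 1 was added, and limma 3.58.1 (R 4.3.3) was run on the log2 values, using a variance trend and Benjamini-Hochberg adjustment over 17649 symbols, after a check on simulated data. Single values had a 2-sided exact permutation test over the libraries. Coordinates and promoters come from RefSeq GRCh38.p14, and transcript lengths and GC content come from GENCODE transcripts. Figures were drawn with matplotlib 3.10.9.

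The members, lists and tests were chosen with earlier results of these data known. Named genes are the members, other S100 genes measured, AGER and TLR4, in each list those with unadjusted p under 0.05 (at most 5) and the 2 with the highest CPM, neighbors of the cluster, and the 3 symbols most correlated with S100A6. The alternatives were a pseudocount of 0.1, filters on low values, separate rows, median centring, quantile normalization, no trend, a replicate block and leaving out each library. A correction for GC content and length, with and without the block, and a fit of its symbols without it were added after seeing the data. Lists of S100-fused genes were not analysed here.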

Additional observations from a re-analysis of the deposited data

Results flagged for a closer look

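Among 86 groups of 4 libraries, 6 held a library that stood far from its group, where chance gives about 1 in 20, or 4.3 groups. PLAT in control 4 had 305 CPM, below 331 to 333 in the other controls. MYH9 in CML 4 had 817 CPM, below 900 to 917 in the other CML libraries. CALM2 in control 4 had 765 CPM, above 687 to 693 in the other controls. SPARC in CML 3 had 6.03 CPM (99 reads), above 0.174 to 0.375 in the other CML libraries. PGR stood at 0.114 CPM in control 4 and at 0.0535 CPM in CML 2, with 0 in the other libraries of each group. These PGR values rest on at most 2 reads. Any read beside values of 0 is flagged, so the rate of 1 in 20 does not hold for PGR. No S100 gene had such a library, and without CML 3 no S100 gene passed the FDR of 0.3.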

How the results depend on the processing

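No S100 gene passed the FDR of 0.3 in the 16 alternatives without a GC correction, nor in the 12122 symbols of that correction left uncorrected, where 140 genes were called. With the GC and length correction, chosen after seeing the data, 2 did (S100A4 and S100A6, which also had an unadjusted p under 0.05), the genes called numbered 836 of 12122, against 158 of 17649 in the whole table, and 9 partner and EF-hand genes were called against 1. With the correction and the replicate block together, these counts were 2, 2, 929 and 9. Libraries of the same number had correlations of 0.199, −0.0303, −0.0645 and 0.334, against a mean of −0.0362 for libraries of different numbers. Whether replicate numbers pair the samples cannot be told from these few values. The replicate block alone gave 189 genes, 2 partner genes (MYH9 and PLAT) and 1 S100 gene at an unadjusted p under 0.05, S100A4 (adjusted p = 0.416). Median centring gave 73 genes and 0 partner genes, and quantile normalization gave 0 partner genes.

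Leaving out single libraries gave 20 (without CML 2) to 690 (without control 4) genes, 0 to 2 partner genes, 0 S100 genes at the FDR of 0.3 and 0 to 1 at an unadjusted p under 0.05 (S100A4 without control 1, S100A10 without CML 3). The corrected fits gave 459 to 829 genes. Over 152 values of the 8 S100 genes under alternatives, 144 kept direction and side of the threshold, 4 passed it and 4 changed sign, each without a single library. Over the fits that left out a library, log2 differences ran from −0.03 to 0.02 for S100A11 (above 0 without control 1), from −0.05 to 0.0012 for S100A13 (above 0 without control 1 or CML 1, the latter 0.0008) and from −0.0002 to 0.08 for S100A6 (below 0 without control 4). ALCAM changed sign with median centring (−0.01), quantile normalization (−0.0036), the correction with or without the block (−0.01) and without control 1 (−0.0048), BSG without control 4 (−0.02 to 0.11 over libraries), and PRKCSH without control 1, 2 or 3 or CML 4 (−0.05 to 0.04). The causes were not tested. Low counts add to the spread of S100A2, S100A3, AGER, S100P and S100A5, which rest on at most 147 reads per library.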
